A study of Mus musculus with 12 samples.

Results

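Genes of the cytosolic ribosomal proteins were examined in livers of mice lacking ENT3, a nucleoside transporter of lysosomal and mitochondrial membranes encoded by Slc29a3. They were taken as array features with a single platform symbol made of Rpl or Rps, a number and at most a letter suffix, or Rplp0 to Rplp2 or Rpsa. Kinases of the Rps6k family and symbols with the pseudogene ending -ps were left out, and the feature with the highest mean stood for a gene with several. This gave 38 genes, 15 of the small subunit and 23 of the large subunit with its stalk, among 30145 genes that had a feature of their own. A set of 6 wild-type mice (WT, ENT3 +/+) was compared with 6 knockout mice (KO, ENT3 -/-), all of the C57BL6/J strain and 12 weeks of age. Each genotype held 3 mice marked M and 3 marked F in the sample titles, read here as male and female. The animal numbers were WT male 17, 23 and 33, WT female 25, 27 and 38, KO male 18, 19 and 39, and KO female 13, 40 and 69. Whole liver was snap frozen, and total RNA of each mouse went onto its own array. The labels give no litter, housing or array batch, nor the stretch of Slc29a3 that the -/- allele lacks.

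The cytosolic ribosome is built from ribosomal RNA and one copy of most ribosomal proteins. Its small subunit reads the messenger RNA, its large subunit joins amino acids, and the acidic stalk of the large subunit recruits the factors that drive elongation. Messenger RNAs of ribosomal proteins share a pyrimidine tract at their start, the TOP motif, through which the kinase mTOR and the RNA-binding protein Larp1 adjust their translation together. In the liver, ribosome content follows feeding and growth, and nucleosides feed the pools from which ribosomal RNA is made.

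Values are the deposited log2 signals, and a difference is KO minus WT on that scale, printed ± its standard error (SE) in the limma model. A gene was called where its p-value, adjusted over all 65956 transcript features by the Benjamini-Hochberg method, was under 0.05. The number of arrays limits the precision. Hepatocyte markers matched the labelled tissue, since 6 of the 8 measured, Alb and Ttr among them, stood on all arrays at 19.93, the highest value every array shares; no ribosomal protein gene reached it. Slc29a3 was lower in KO, at 4.13 ± 0.04 against 5.07 ± 0.18 (SD, n = 6 each), a difference of -0.94 ± 0.07 (limma adjusted p = 0.000324), with both genotypes inside the range of the negative control features. Poly-A spikes, added before labelling, were lower in KO arrays, at 5.10 to 6.06 against 5.98 to 6.81 in WT. Signals of the 38 genes ran from 3.32 to 18.63, and levels of different features are not comparable with each other. Dimness was judged against the 95th percentile of the negative controls on the same array: 23 genes lay above it on all 3 arrays of all 4 groups, and 13 did so in no group. The size of a difference in those 13 is not exact.

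Over both sexes, 6 of the 38 genes were higher in KO livers and 0 were lower. The 6 were Rpl37a and Rpl39 of the large subunit and Rps9, Rps4x, Rps20 and Rps24 of the small subunit, with log2 differences of 0.26 to 0.89. Among all transcript features 5.28% were called higher and 4.47% lower, and among named genes 5.82% and 8.33%, beside 15.8% of the ribosomal protein genes called higher. Of the 9817 features above the negative controls in at least 1 group, 16.7% were called higher and 20.9% lower, beside 4 and 0 of 25 ribosomal protein genes. The share of brighter members called higher was thus close to its background. With p-values adjusted over the brighter features alone, 22.4% were higher and 26.7% lower, beside 6 and 0 of the 25. The remaining 32 genes did not pass the test. The median difference was 0.16 over the 38 genes, 0.05 over all features and 0.03 over named genes. Differences were above 0 in 29 of the 38 genes, in 42960 of 65956 features and in 17720 of 30145 named genes. Among 6879 named genes with signals between the lower and upper quartile of the ribosomal protein genes, the median was -0.12. Of these, 2651 had a difference above 0, 653 were called higher and 1706 lower. In whole liver, a change in RNA per cell and a change in the share of cells that carry it cannot be told apart.

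Quantile normalization or centring each array on its median lowered the median of the 38 genes to 0.06 and 0.09 and left 20 and 24 of the differences above 0. The same steps turned the median of all features from 0.05 to -0.01 and -0.02 and the split of called features from 3482 higher and 2950 lower to 2555 and 4091, and 2538 and 4001. When each array's mean poly-A spike signal was added to the model as a covariate, 0 of the 38 genes were called, 36 of 38 differences were above 0 with a median of 0.38, and 3 features of the whole array were called.

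**Figure D1:**
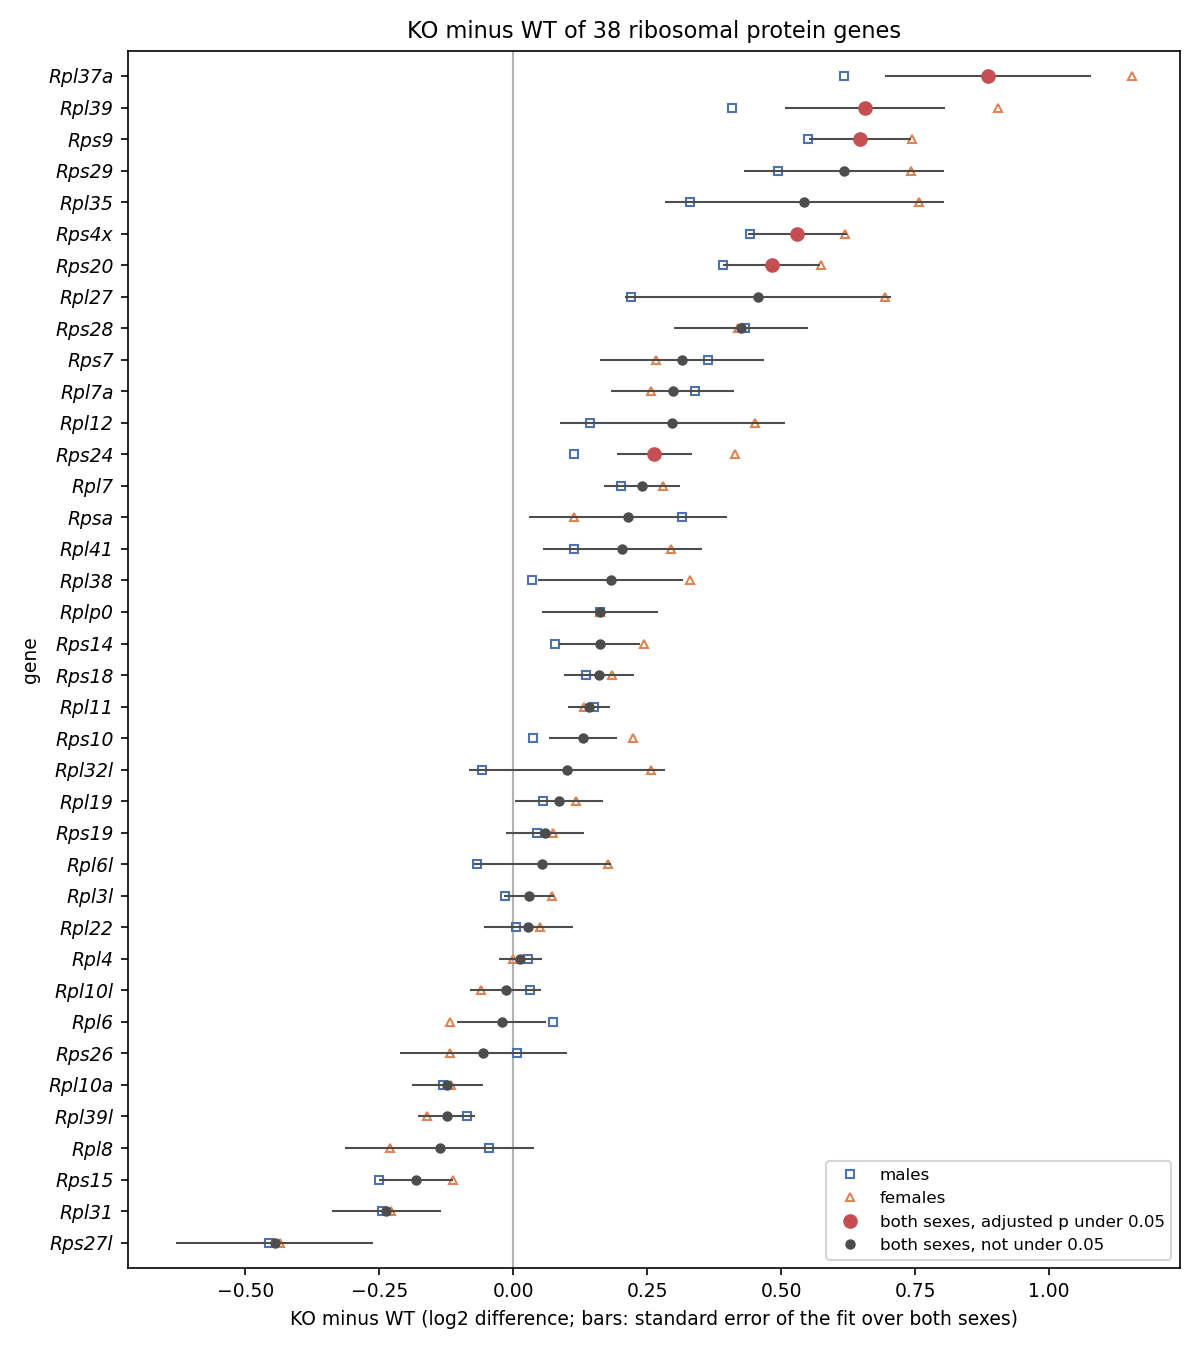
KO minus WT difference (log2, x axis) of the 38 ribosomal protein genes (y axis, in order of the difference over both sexes). Circles are both sexes with the standard error of the fit as bars, red where the adjusted p was under 0.05; squares are males and triangles females. The differences run from -0.45 in Rps27l to 0.89 in Rpl37a, and the 6 red circles are all above 0.

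Among proteins of the small subunit, 4 of 15 genes were higher in KO and 0 were lower, and the median difference was 0.21. Rps9 encodes a protein that lines the entry of the messenger RNA channel. Its signal in WT males was 5.22, 5.34 and 5.09, in WT females 5.50, 5.22 and 5.17, in KO males 6.00, 5.70 and 5.60, and in KO females 6.03, 6.22 and 5.88. All 6 KO mice exceeded all 6 WT mice, which held for 1 of the 38 genes and for 1.97% of all features. The difference was 0.65 ± 0.10 (limma adjusted p = 0.00294), and all of these signals were within the range of the negative controls.

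Rps4x, the X-linked gene of a protein in the body of the small subunit, was at 10.17, 10.22 and 10.20 in WT males and at 10.62, 10.41 and 10.26 in WT females. KO males were at 10.90, 10.58 and 10.43 and KO females at 11.18, 11.07 and 10.89. The groups overlapped through 1 WT mouse, female 25, whose 10.62 was above KO males 19 and 39, and the difference was 0.53 ± 0.09 (adjusted p = 0.00633). Rps20 encodes a protein of the head of the small subunit that is ubiquitinated when ribosomes collide. It was at 7.75, 7.81 and 7.72 in WT males, 8.30, 7.90 and 7.89 in WT females, 8.20, 8.27 and 7.99 in KO males and 8.60, 8.77 and 8.45 in KO females. WT female 25 exceeded all 3 KO males, while the other 5 WT mice lay below every KO mouse, and the difference was 0.48 ± 0.09 (adjusted p = 0.00892).

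Rps24, needed for maturation of the small subunit's RNA and mutated in some patients with Diamond-Blackfan anaemia, showed the smallest of the called differences. WT males were at 5.65, 5.70 and 5.62, WT females at 5.76, 5.70 and 5.70, KO males at 5.94, 5.62 and 5.75, and KO females at 6.16, 6.29 and 5.95. KO females stood above all WT mice, whereas KO male 19 lay at the bottom of the WT values. The difference was 0.26 ± 0.07 (adjusted p = 0.0433) at signals within the negative control range. The call held in only 2 of the 12 fits that left out 1 mouse, with adjusted p up to 0.0955 without WT male 33; in the other 10, without any of KO females 13 and 40, KO males 18 and 39, WT females 25, 27 and 38 or WT males 17, 23 and 33, it was lost. It was also lost with arrays centred (0.19, adjusted p = 0.132), with the intensity trend (adjusted p = 0.0784) and with no sex term (adjusted p = 0.142).

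In the large subunit 2 of 23 genes were higher in KO and 0 lower, with a median difference of 0.10. Rpl37a, a zinc-binding protein of the large subunit, had the largest difference of the 38 genes. It was at 10.50, 10.77 and 10.50 in WT males, 11.24, 10.43 and 10.28 in WT females, 11.70, 11.10 and 10.82 in KO males and 12.06, 11.66 and 11.70 in KO females. KO females were clear of all WT mice and WT female 25 lay above KO males 19 and 39. The difference was 0.89 ± 0.19 (adjusted p = 0.0175).

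Rpl39 encodes a very small protein at the wall of the tunnel through which the new chain leaves. It was at 10.67, 10.75 and 10.42 in WT males, 11.49, 10.81 and 10.58 in WT females, 11.20, 10.88 and 10.99 in KO males and 11.67, 12.06 and 11.86 in KO females. WT female 25 exceeded all 3 KO males, and the other 5 WT mice were below every KO mouse. The difference was 0.66 ± 0.15 (adjusted p = 0.0215), and the call was lost without KO male 18, WT female 27 or WT male 33 (adjusted p = 0.0544, 0.0515 and 0.0557). Calls of Rps9, Rps4x, Rps20 and Rpl37a held in all 12 fits that left out 1 mouse. With no sex term the calls of Rpl39 (adjusted p = 0.115) and Rps20 (adjusted p = 0.0550) were lost. Without KO male 19 and WT female 38 together, those of Rpl37a (adjusted p = 0.0624), Rpl39 (adjusted p = 0.0512) and Rps24 (adjusted p = 0.0597) were lost.

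**Figure D2:**
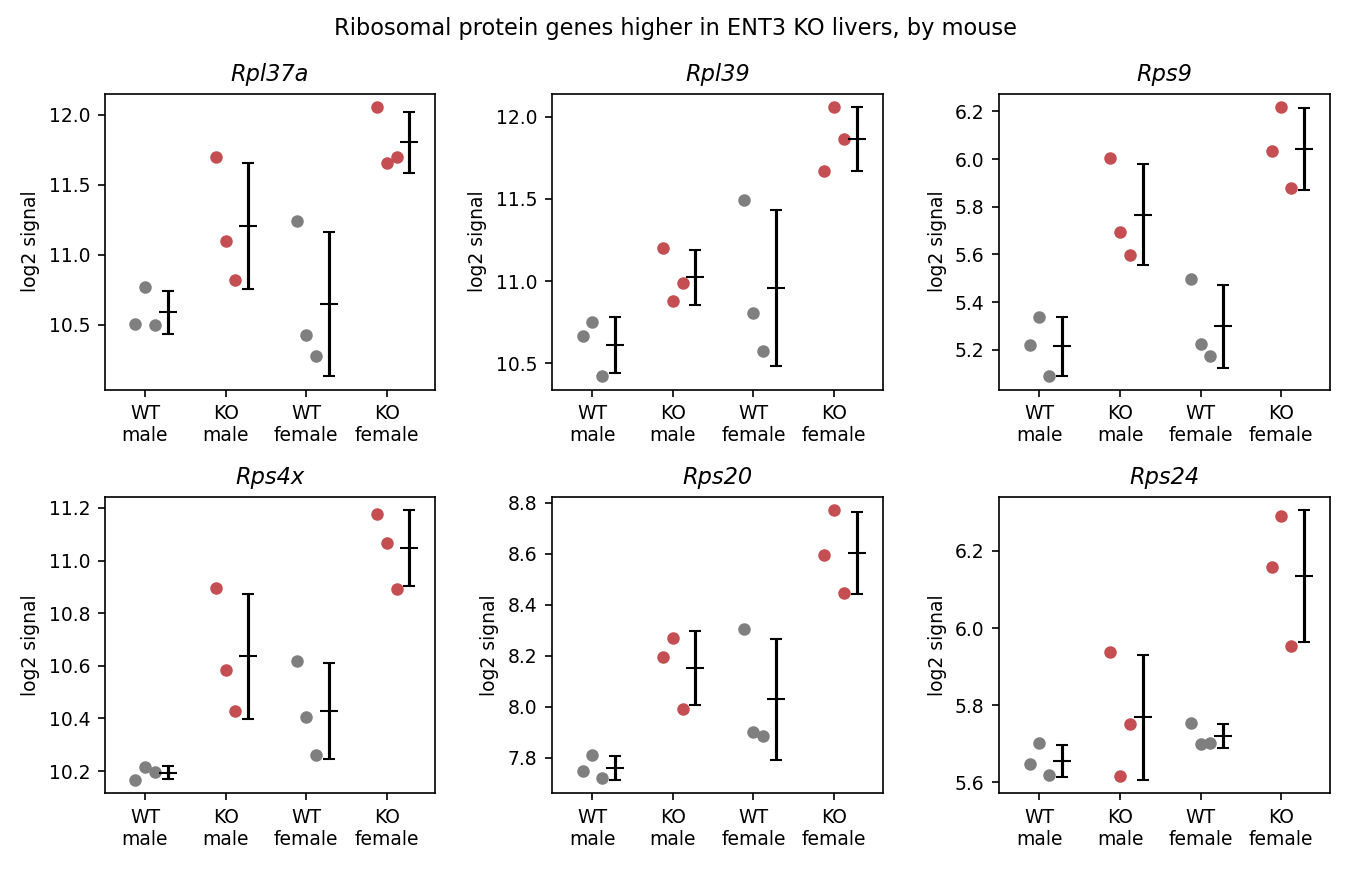
Log2 signal (y axis) of the 6 ribosomal protein genes called higher in KO livers, by group (x axis; 3 mice each). Points are mice and bars the mean ± SD of the group. KO females sit above all WT mice in all 6 panels, and the highest WT female, mouse 25, reaches the KO males in all panels except Rps9.

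The start of the transcript is where the TOP tract lies, so the 30 bases around the RefSeq start of the called genes are shown with Rps27l, the gene with the lowest difference. Each line gives 15 bases before and 15 from the start on, 5′ to 3′ on the gene's strand in the GRCm38.p6 assembly, with the longest run of C and T in capitals; of genes with several starts the most upstream is shown.
Rpl37a, chr1:72711245-72711274, plus strand: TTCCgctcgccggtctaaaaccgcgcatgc
Rpl39, chrX:37085208-37085237, minus strand: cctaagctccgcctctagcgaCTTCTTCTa
Rps9, chr7:3704026-3704055, plus strand: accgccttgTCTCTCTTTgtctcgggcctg
Rps4x, chrX:102189377-102189406, minus strand: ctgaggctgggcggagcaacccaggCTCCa
Rps24, chr14:24490663-24490692, plus strand: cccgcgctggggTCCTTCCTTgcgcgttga
Rps27l, chr9:66946071-66946100, plus strand: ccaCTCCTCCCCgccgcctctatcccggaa
The run spans the annotated start in Rps9 and Rps24, where it is 9 bases long. It begins at base 7 of the transcript in Rpl39, lies upstream of the start in Rps27l, and is only 4 bases long in Rpl37a and Rps4x. Rps20 has no entry in that table.

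Over the 32 genes with an entry, which have 40 starts, a run of at least 6 C or T within such a window occurred at 19 starts (47.5%), against 29.2% of all 32851 starts and 28.8% of those of coding genes. Motifs were searched on both strands in the 300 bases from 250 before to 50 after the start. CCGGAAGT, a core bound by ETS factors, was found at 8 of 40 starts (20%) against 3.89% of all starts, among them those of Rpl11, Rps18 and Rps27l and none of the called genes with an entry. AAGATGG, the core bound by YY1, was found at 10% against 6.34%, and TATAAA at 12.5% against 13.6%. These are matches of letters, not measured sites.

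Several genes fell just short of the threshold. Rps29, a small zinc-binding protein of the small subunit, was at 12.61 to 13.67 in WT and 13.04 to 14.02 in KO, a difference of 0.62 ± 0.19 (adjusted p = 0.0684). Rps28, near the messenger RNA exit, differed by 0.43 ± 0.13 (adjusted p = 0.0617) within the negative control range. Rpl7, a protein of the large subunit, was at 6.60 to 6.98 in WT and 6.79 to 7.30 in KO (0.24 ± 0.07, adjusted p = 0.0643). These 3 were chosen after their values were seen. Rpl11 is the protein that, outside the ribosome, holds back Mdm2 and so stabilises p53. Its signal was 5.07, 5.20 and 5.09 in WT males, 5.26, 5.26 and 5.24 in WT females, 5.29, 5.26 and 5.26 in KO males and 5.41, 5.40 and 5.35 in KO females. KO lay above WT within each sex, at signals within the negative control range. The difference of 0.14 ± 0.04 (adjusted p = 0.0523) was called in 1 of the 12 fits without a mouse, that without WT male 23 (adjusted p = 0.0441).

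Other members with well-known roles did not pass the test. Rplp0 forms the base of the acidic stalk and is often used as a reference gene. It was at 11.76, 11.94 and 11.52 in WT males, 11.86, 11.60 and 11.87 in WT females, 12.12, 11.98 and 11.60 in KO males and 11.94, 12.07 and 11.81 in KO females, so the genotypes overlapped (0.16 ± 0.11, adjusted p = 0.422). Rpsa, also known as a laminin receptor, was at 11.57, 11.32 and 11.52 in WT males, 12.13, 11.61 and 11.56 in WT females, 11.78, 12.37 and 11.21 in KO males and 12.09, 11.68 and 11.89 in KO females (0.21 ± 0.19, adjusted p = 0.552). KO males spanned more than the whole WT range. Rps19, the gene most often mutated in Diamond-Blackfan anaemia, was at 5.18 to 5.50 in WT and 5.24 to 5.57 in KO, within the negative control range. Its difference of 0.06 ± 0.07 (adjusted p = 0.690) was -0.01 after centring. Rpl4, a tunnel protein, read 17.17 on 10 of the 12 arrays, 17.28 in KO male 19 and 17.13 in KO male 39 (0.01 ± 0.04, adjusted p = 0.882). Why a value repeats on 10 arrays was not tested.

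Among paralogues known mainly from other tissues, 3 were measured and did not pass the test. Rpl3l of striated muscle was at 3.45 to 3.61 in WT and 3.45 to 3.63 in KO (0.03 ± 0.05, adjusted p = 0.771). Rpl39l of testis was at 3.52 to 3.64 in WT and 3.32 to 3.59 in KO (-0.12 ± 0.05, adjusted p = 0.189), and Rpl10l of testis at 4.74 to 5.08 and 4.73 to 4.91 (-0.01 ± 0.07, adjusted p = 0.933). All of these values were within the negative control range.

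No member was called lower in KO by the limma fit, with 4 at an unadjusted p under 0.05 (Rps27l, Rpl31, Rps15 and Rpl39l) beside 12 on the higher side. How many of all features pass that unadjusted threshold in each direction was not counted, so the split of 12 and 4 has no background. Rps27l, a p53-inducible paralogue of Rps27, had the lowest difference. It was at 11.82, 12.46 and 11.69 in WT males, 12.24, 11.68 and 11.86 in WT females, 11.59, 11.48 and 11.53 in KO males and 11.34, 12.04 and 11.10 in KO females. All KO mice except female 40 were below all WT mice, and the difference was -0.45 ± 0.18 (adjusted p = 0.177), or -0.58 ± 0.15 without KO female 40, where it passed (adjusted p = 0.0471). Rps15, a protein of the head of the small subunit, was named after its values were seen. It was at 8.61, 8.77 and 8.66 in WT males, 8.66 in each of the 3 WT females, 8.61, 8.50 and 8.19 in KO males and 8.52, 8.54 and 8.58 in KO females. Every KO mouse was below every WT mouse, as in 1.94% of all features, by a margin that 2 decimals do not show in mice at 8.61, and the difference of -0.18 ± 0.07 was not called (adjusted p = 0.141). Rpl31, another large subunit protein, differed by -0.24 ± 0.10 (adjusted p = 0.197) within the negative control range.

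Within the sexes, 6 genes were called higher in females and 0 in males. The 6 called in females were the same 6 as over both sexes. In females 3.13% of all features were called higher and 3.06% lower, and in males 0.579% and 0.506%. With dim features left out, 4 of 25 members were called higher in females and 0 lower, beside 15.5% and 22.2% of the 9817 features. The members' share called higher was thus close to its background, while the share called lower was below it. In males 6 genes were higher and 1 lower at an unadjusted p under 0.05 in limma. The share of all features at that unadjusted threshold was not counted, so these numbers have no background to be read against. The median difference was 0.20 in females and 0.10 in males, beside 0.07 and 0.03 over all features. With centring the medians were 0.11 and 0.05, and with quantile normalization 0.07 and -0.03. With the poly-A covariate they were 0.45 and 0.36. Leaving out 1 mouse moved the median in males to 0.010 without WT male 33, 0.021 without KO male 18, 0.15 without WT male 23 and 0.18 without KO male 39. The median in females was 0.13 without KO female 40 or WT female 27.

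Among the 6 called genes the difference was larger in females each time. Rpl37a differed by 1.15 ± 0.27 in females and 0.62 ± 0.27 in males (adjusted p = 0.0358 and 0.380). Rpl39 differed by 0.90 ± 0.21 and 0.41 ± 0.21 (adjusted p = 0.0348 and 0.476), and Rps24 by 0.41 ± 0.10 and 0.11 ± 0.10 (adjusted p = 0.0389 and 0.733). The sexes were closer in the other small subunit genes. Rps9 differed by 0.74 in females and 0.55 in males, Rps4x by 0.62 and 0.44, and Rps20 by 0.57 and 0.39, with adjusted p of 0.0129, 0.0235 and 0.0293 in females. The difference between the sexes itself was called by limma in 0 of 38 genes, beside 0.00152% of all features, and the smallest adjusted p was 0.764. At an unadjusted p under 0.05 there were also 0 of 38 genes, with no share of all features counted. A larger change in females was therefore not shown.

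The count in females rested on few mice. It was 0 without WT female 38, 1 without KO female 13, KO female 40 or WT female 27, and 3 without WT male 17 or 23, mice that enter the female contrast only through the shared estimate of the spread. KO and WT did not overlap in 8 genes above and 3 below in males, beside 11.1% and 7.49% of all features, and in 11 above and 2 below in females, beside 17.3% and 8.35%. The 6 genes above in both sexes were Rpl11, Rpl37a, Rpl39, Rps20, Rps4x and Rps9, with Rpl11 and Rps9 within the negative control range. The share of all features above in both sexes was not counted, so this number has no background to be read against.

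Some mice were high or low across most of the members. WT female 25 had the highest signal of its group in 32 of 38 genes, WT male 23 in 30, KO male 18 in 27 and KO female 40 in 23. At the other end, WT male 33 was lowest of its group in 28 genes and KO male 39 in 29. The median over the 38 genes, each against the WT mean of the same sex, ran from -0.12 to 0.16 in WT mice and from -0.02 to 0.26 in KO mice. WT male 23 and WT female 25, at 0.13 and 0.16, were as high as KO females 13 and 69, at 0.16 and 0.12, and KO male 19 was at 0.16. KO males 19 and 39 and KO females 13 and 69 were thus inside the WT range, and KO male 18 at 0.22 and KO female 40 at 0.26 were above it. What these mice share was not tested.

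**Figure D3:**
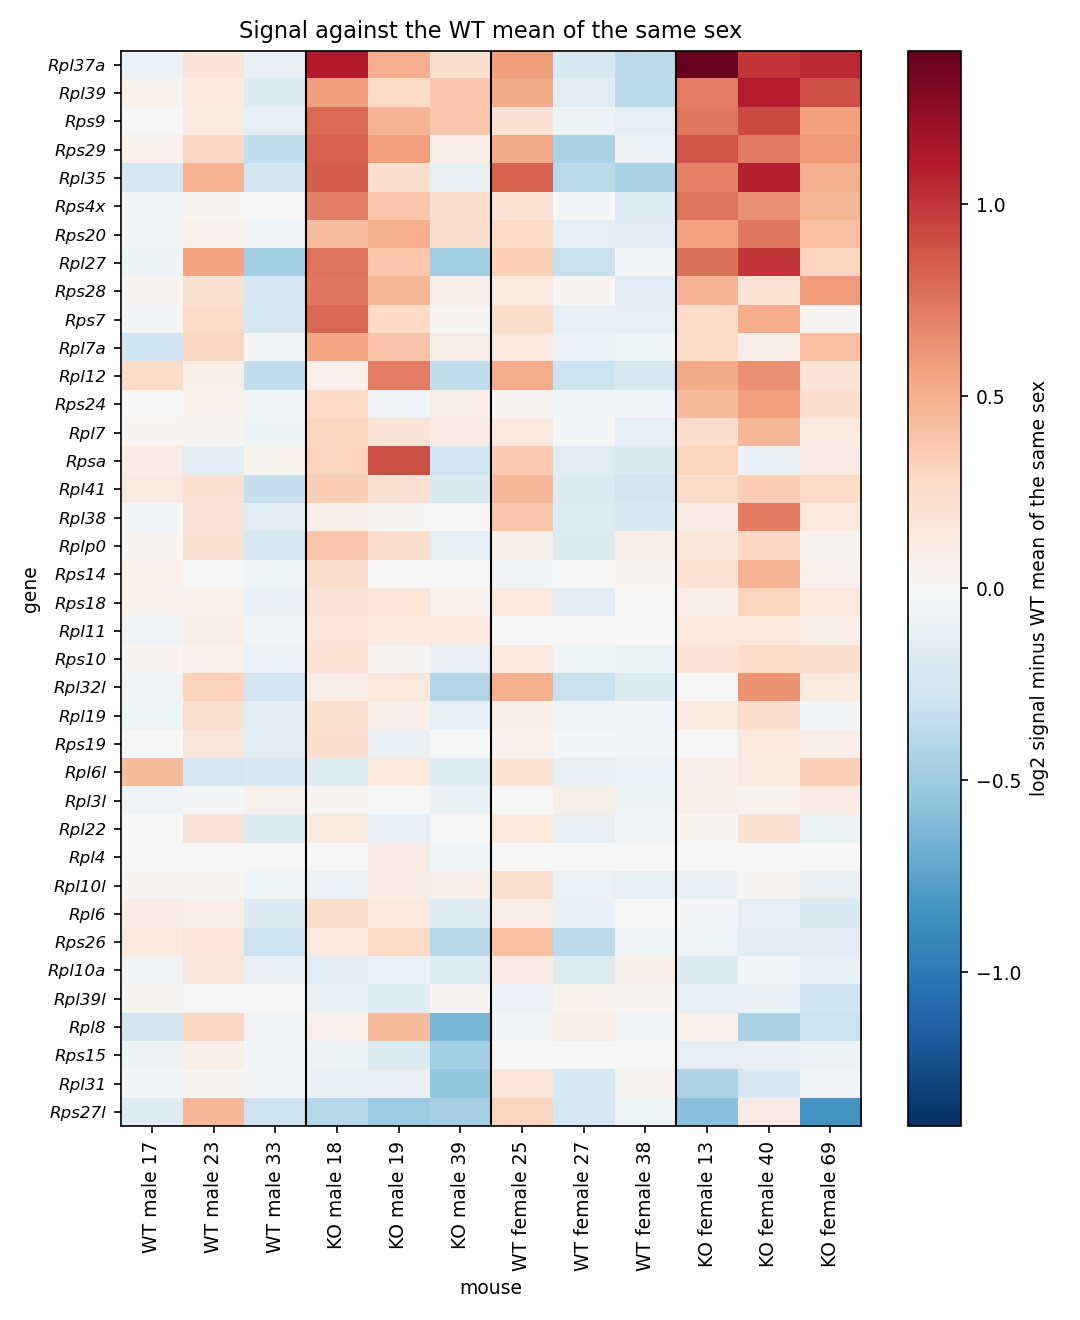
Log2 signal of each ribosomal protein gene (rows, ordered by the difference over both sexes) in each mouse (columns) minus the WT mean of the same sex, on a colour scale centred on 0. Most of the upper rows are red in the 3 KO females and in KO males 18 and 19; WT female 25 is also above 0 in 32 of 38 rows, some of them only slightly, and the 3 bottom rows, Rps15, Rpl31 and Rps27l, are mostly blue in KO.

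Ribosomal protein genes have many near-identical processed copies in the genome, so a feature may read more than the gene it is named for. The table places the feature on another chromosome than the gene in RefSeq for 6 of the 38 genes (Rpl12, Rpl27, Rpl31, Rpl35, Rpl41 and Rpl7a), whereas 99.0% of 29481 named features lie on their gene's chromosome. None of these 6 was called. Rpl35, at the tunnel exit, differed by 0.54 ± 0.26 on that feature (adjusted p = 0.248) and by 0.44 ± 0.16 on a feature of its own chromosome (adjusted p = 0.111). Rpl27 differed by 0.46 and 0.15, Rpl7a by 0.30 and 0.15 and Rpl41 by 0.20 and 0.13 on the same pair of choices. The own-chromosome features of Rpl27 and Rpl41 were dim, above the negative controls in no group, unlike their other features. Rps26, which binds the messenger RNA near its exit and has 3 features, differed by -0.06, -0.09 and 0.12, the last on a feature equally dim. Using only features of the gene's own chromosome, an alternative chosen after the data were seen, left 36 genes, without Rpl12 and Rpl31. The calls were the same 6, which already stood on such features and so could not change. None of Rpl27, Rpl35, Rpl41 and Rpl7a, whose feature did change, was called. Of 81 coding genes in RefSeq whose symbols follow the naming rule, 37 are members and another 37, among them Rpl5, Rplp1 and Rplp2, occur only in features with several symbols. In all, 53 features with several symbols name at least 1 gene that fits the rule, which may be a member. Of these 53, 8 were called higher and 0 lower, beside 5.28% and 4.47% of all features. Of features above the negative controls in at least 1 group, 16.7% were called higher and 20.9% lower. How many of the 53 were above the negative controls was not counted. Their median difference was 0.14.

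The other members did not pass the test either. Among small subunit genes, Rps7 differed by 0.31 ± 0.15, Rps14 by 0.16 ± 0.08, Rps18 by 0.16 ± 0.07 and Rps10 by 0.13 ± 0.06. Rps7 acts in assembly of its subunit, and Rps14 is the gene linked to the anaemia of some myelodysplastic syndromes. In the large subunit Rpl12, at the base of the stalk, differed by 0.30 ± 0.21 and Rpl38 by 0.18 ± 0.14. Rpl19, Rpl22, Rpl6, Rpl6l and Rpl32l lay between -0.02 and 0.10, and Rpl8 and Rpl10a at -0.14 ± 0.18 and -0.12 ± 0.07. Rpl6l is a pseudogene in RefSeq despite its symbol. Rps14, Rps18, Rpl6 and Rpl10a were above the negative controls in no group.

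Ribosomal proteins outside the naming rule gave values in both directions. Of 4 measured, Rps3a1 of the small subunit was higher in KO (14.55 in WT and 15.12 in KO, a difference of 0.57 ± 0.12, adjusted p = 0.0177), and so was Rpl22l1, a paralogue of Rpl22 (1.02 ± 0.21, adjusted p = 0.0131). Rpl7l1, a paralogue of Rpl7 that acts in assembly of the large subunit, was lower (-1.08 ± 0.13, adjusted p = 0.00117). Fau, which encodes a small subunit protein fused to a ubiquitin-like domain, differed by -0.50 ± 0.18 (adjusted p = 0.117). Rpl22 itself differed by 0.03 ± 0.08 and Rpl7 by the 0.24 given above.

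Genes that act in making ribosomes were called in both directions, as were genes at large. Over all named genes 5.82% were called higher and 8.33% lower. Over features above the negative controls in at least 1 group the shares were 16.7% and 20.9%. In ribosome assembly 5 of 61 measured genes were higher and 6 lower, with a median of 0.04. The nucleolar chaperone Npm1 was higher (0.71 ± 0.09, adjusted p = 0.00164). Imp4 of the small subunit processome (-0.76 ± 0.14), Pno1 of small subunit maturation (-0.71 ± 0.11) and Dkc1, which modifies ribosomal RNA (-0.31 ± 0.06), were lower (adjusted p = 0.00900, 0.00333 and 0.0109). For RNA polymerase I 1 of 13 genes was lower, the initiation factor subunit Taf1a (-0.21 ± 0.05, adjusted p = 0.0345), 0 were higher and the median was -0.04. Taf1b (0.34 ± 0.17), Twistnb (0.47 ± 0.26) and Polr1b (-0.16 ± 0.10) did not pass.

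Translation factors were also called in both directions, beside the same 5.82% higher and 8.33% lower of named genes and 16.7% and 20.9% of brighter features. Among initiation factors 4 of 29 were higher and 5 lower (median -0.09): Eif5b, which joins the subunits, was higher (0.70 ± 0.08, adjusted p = 0.00148), and Eif3l (-0.82 ± 0.08), Eif4b (-0.82 ± 0.14) and Eif2s3x (-0.75 ± 0.13) were lower (adjusted p = 0.000794, 0.00566 and 0.00543). Among elongation and termination factors 0 of 11 were higher and 2 lower (median -0.15, with 1 gene at the shared maximum). These were Eif5a, which helps ribosomes past difficult peptide bonds (-1.18 ± 0.16, adjusted p = 0.00231), and the release factor Gspt1 (-0.62 ± 0.08, adjusted p = 0.00216). Eef1e1 (-0.50 ± 0.22) and Eef2k (-0.15 ± 0.05) did not pass.

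Of 15 other messenger RNAs with a TOP tract, 3 were higher and 1 lower, with a median of 0.07. For this list and those that follow, the shares of named genes were 5.82% higher and 8.33% lower. Those of brighter features were 16.7% and 20.9%. Npm1 is on this list too, beside the histone chaperone Nap1l1 (0.92 ± 0.12, adjusted p = 0.00214), the poly-A binding protein gene Pabpc1 (0.51 ± 0.11, adjusted p = 0.0197) and Eif4b. Of the host RNAs of small nucleolar RNAs only 2 were measured, Snhg5 (1.11 ± 0.22, adjusted p = 0.0110) and Snhg6 (0.51 ± 0.09, adjusted p = 0.00638), and both were higher. Among genes that signal growth to the ribosome 2 of 22 were higher and 8 lower (median -0.17). Mlx, a partner of glucose-sensing transcription factors (-1.02 ± 0.14), the S6 kinase gene Rps6kb2 (-0.60 ± 0.11), the mTOR brake Tsc2 (-0.58 ± 0.11) and Lamtor2 of the lysosomal anchor of mTOR (-0.37 ± 0.06) were lower (adjusted p = 0.00215, 0.00724, 0.0102 and 0.00432). For ribosome rescue and quality control, limma called 0 of 8 genes (median -0.18); the smallest adjusted p was that of Gtpbp2 (0.13 ± 0.04, adjusted p = 0.0553), and Gtpbp1 (-0.33 ± 0.10), Tcf25 (-0.30 ± 0.10) and Ltn1 (-0.23 ± 0.09) did not pass.

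Markers of other cells moved with genotype beside these values. Of 12 genes of Kupffer cells and macrophages 10 were higher in KO, with a median of 2.44 and a mean level of 9.26 to 13.08 in KO mice against 7.46 to 8.78 in WT. Of 10 neutrophil genes 7 were higher (5.12 to 8.47 against 4.17 to 4.76). For cycling cells 1 of 5 was higher, Mki67, and the mean level was 4.05 to 5.41 against 3.76 to 3.88. Of B cell genes 1 of 4, Cd79b, was higher (4.16 to 4.61 against 4.01 to 4.34). Of endothelial genes 2 of 4 were higher and 1 lower (7.88 to 9.33 against 7.87 to 8.66). Of hepatocyte genes 0 of 8 were called. However, 6 of these stood at the shared maximum on all arrays, where no difference could show, and Tat did on 11. By limma 0 of 6 T and NK cell genes (3.82 to 4.35 against 3.87 to 4.13), 0 of 4 erythroid (5.20 to 6.06 against 4.64 to 5.50), 0 of 4 bile duct (4.23 to 4.76 against 4.24 to 4.54) and 0 of 4 stellate cell genes (7.61 to 9.14 against 8.09 to 8.41) were called. The part of these cells in the values of the ribosomal protein genes was not tested.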

How the data were processed

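Each of the 12 livers was measured on 1 Affymetrix MTA array. The authors deposited 1 log2 signal per feature and array, for which the submitters' processing notes name Transcriptome Analysis Console with no version. The normalization, the summary over probes and the build are not given in these sources. Of 72688 features, 6732 controls were left out of the tests, and of 65956 transcript features 30604 had 1 gene symbol in the platform table, 2146 several and 33206 none. Groups of 3 mice came from genotype and title letter, and p-values measure the spread between these mice.

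Means of the 4 groups were fitted with limma 3.58.1 in R 4.3.3 (lmFit, eBayes, 8 residual degrees of freedom) to the values as deposited, with no filter. On simulated data over 65956 features, changes of 0.5, 1, 2 and 4 (log2, KO against WT over both sexes) were recovered at 52%, 84%, 100% and 98%, with 4 false calls. Each size was given to 50 features, and noise was drawn independently for each feature. Shifts shared by a whole array were not simulated, so these rates do not cover them. Start windows and promoters came from RefSeq. Members and gene lists were chosen with earlier results of these data known. Named genes were the called members, Rplp0, Rpl5, Rpl11, Rps6, Rps19, Rps27a, Rpsa and the paralogues Rpl3l, Rpl10l, Rpl39l, Rps4l and Rps27l, of which Rpl5, Rps6, Rps27a and Rps4l are not analysed here, and up to 4 genes of each list by unadjusted p. Alternatives covered scaling, choice of feature, dim features, the variance trend, the poly-A spikes, the sex term, the fold and each mouse left out.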

Additional observations from a re-analysis of the deposited data

Results flagged for a closer look

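In 4 of 28 sets of 6 mice examined (14 named genes in each genotype), 1 mouse lay far from the other 5 by Dixon's criterion, which chance passes in about 1 of 20 sets. The mouse was WT female 25 each time, the highest WT mouse at 11.49 for Rpl39, 8.30 for Rps20, 12.13 for Rpsa and 5.08 for Rpl10l, the last within the range of the negative controls. The same mouse was the highest of its group in 32 of the 38 ribosomal protein genes, a tie in Rpl4 included. Without it, 7 of the 38 genes were called over both sexes, 5 of them among the 6 called with it, and the median difference was 0.19.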

How the results depend on the processing

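The count over both sexes (6) was 3 with a 1.5-fold minimum, with no sex term, or without KO male 19 and WT female 38, which an earlier analysis had singled out, and 0 with the poly-A covariate; leaving out 1 mouse gave 4 to 7. It was 5 with centring and with the intensity trend, and 7 by quantiles. The count in females (6) was 3 with the intensity trend and 0 with the covariate or without those 2 mice, and 0 to 6 without any 1 mouse. Counts in males and for the interaction were 0 in all settings run. The median (0.16) was 0.38 with the covariate. Among the 14 named genes, whose signs were followed one by one, signs turned in 3 uncalled ones: Rpl10l (0.015 with the covariate, 0.014 without KO male 18, and -0.066 to 0.038 over all fits that left out mice, the highest without WT female 25), Rpl3l (-0.040 centred, -0.020 by quantiles) and Rps19 (-0.0096 centred, -0.0082 by quantiles). With the covariate the differences of the called genes were 1.13 in Rpl37a (adjusted p = 0.544), 0.56 in Rpl39 (0.749), 0.83 in Rps9 (0.333), 0.65 in Rps4x (0.455), 0.74 in Rps20 (0.342) and 0.25 in Rps24 (0.771), and SEs were wider. The causes were not tested. With dim features left out, 6 of 25 genes were called, 4 of them among the main 6. No paired analysis was possible because no animal number occurs in 2 groups. For 13 dim genes the negative controls limit the size of a difference.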

Other observations

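Beside the genes themselves, 201 features carry the symbols of ribosomal protein pseudogenes. Of these, 11 (5.47%) were called higher in KO and 1 (0.498%) lower over both sexes, with a median difference of 0.06. The share called higher and the median were close to the 5.28% and 0.05 of all features, of which 4.47% were called lower. In females the calls were 4 higher and 1 lower, and in males limma called 0, with a median of 0.02. Their differences ran from -1.03 to 1.21, wider than those of the 38 genes.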
